A study of Paeonia ostii with 18 samples.

Results

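Ribosomal protein genes were followed in flower buds of tree peony during a chilling treatment, and 31 probes of a custom tree peony microarray, of the 14949 probes in the deposited value table, carried a ribosomal protein in their description. They were chosen by a readout: their descriptions stand in the held rows of the study's lists of probes that changed during chilling, of which 3720 probes have a description held here, and no claim about how many ribosomal protein genes changed can be drawn from their presence. Of the 31, 7 stood in the list built on comparisons among all 6 times and the other 24 were held only in lists built on 6 to 24 d of chilling, without 0 d. The plants were 4-year-old *Paeonia ostii* 'Feng Dan Bai', potted while endo-dormant and kept at 0 to 4 °C, and mixed buds were taken before chilling (0 d) and after 6, 12, 15, 18 and 24 d of it. The labels call 0, 6, 12 and 15 d endo-dormancy (warmth alone does not bring full bud break). They call 18 d endo-dormancy release and 24 d eco-dormancy (buds held back by cold alone). Buds under the endo-dormancy label were not all unable to break, since the paper reports partial bursting in warmth at the later of these times. Each time had 3 replicates of 3 plants with pooled buds, 18 single-colour arrays in all. All groups share the cultivar and age, all chilled groups the cold room, time in the cold cannot be told apart from calendar date, and no series of plants kept warm was analysed here.

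The ribosome joins amino acids into protein in the order an mRNA gives, and each of its subunits is a folded ribosomal RNA clothed with ribosomal proteins. A plant cell holds cytosolic ribosomes (40S and 60S subunits), whose proteins are encoded in the nucleus, and bacterial-type ribosomes (30S and 50S subunits) in plastids and mitochondria, whose proteins come partly from the nucleus and partly from the organelle's own genome. Ribosomal protein transcripts are among the abundant mRNAs of growing tissue, and a bud that resumes growth has to make new ribosomes. By their descriptions, 16 members named a 40S or 60S protein, 5 named a 30S or 50S protein, 7 had names that plant organelle genomes also carry with no subunit given (L2, L5, L22, S3 and S4), and 3 had no subunit named (L10a, L15 and an L10 family protein). The descriptions come from matches in other plants, save for L1, 60S L10 and S7, which are clones of *Paeonia suffruticosa*, and the 7 are called here by name and not by organelle. Buds are mixed tissue, and fewer cells of a type and less RNA per cell cannot be told apart in them.

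Every array had 15715 spots, and none of the 15179 non-control spots was saturated. Between 82.2 and 96.5% of the non-control probes were well above background (median 91.3%). Of the 31 members, 30 were well above background on all 18 arrays; the exception, L22, reached this on 16. The MADS-box probe annotated AGL20, a floral regulator, was above background on 18 of 18 arrays, and the probe for the flowering repressor FLC, whose sequence is that of *Arabidopsis*, on 0. Since most probes were above background and the FLC sequence is that of another plant, these results do not check the tissue. The arrays lay on 3 slides that follow the times: the arrays of 0 and 6 d were on slide 1 with 2 from 12 d, those of 15 and 18 d were on slide 2 with replicate 3 from 12 d and replicate 1 from 24 d, and slide 3 took the other 2 from 24 d. All values below are log2 signals after the authors' quantile normalization, where 1 unit is a doubling, and levels of different probes are not compared. The replicates are separate plants, and n = 3 arrays at each time throughout.

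Changes of the members were mostly small and went both ways. The difference between a member's highest and lowest time mean ran from 0.23 in L19 to 2.29 in the 50S protein L1, and 5 of the 31 reached 1 or more, L1, L5, S3 (CUST_2862), S4 (CUST_15119) and L10a, while 29.7% of all probes did. The spread between replicates was small as well, with a median pooled SD of 0.181 over the members and 0.162 over the 16 cytosolic ones. It was 0.338 over all probes. The lists were picked by analysis of variance, which favours a small replicate spread, and the part of this choice in the gap was not tested. Signal level was not matched between the sets. Of the members, 9 had their highest mean at 18 d and 7 their lowest, and over all probes these shares were 21.5% and 16.2%. No time was shared by most members as a peak or a trough: 6 were highest and 6 lowest at 0 d (23.8% and 27.4% of all probes), and 5 were highest and 3 lowest at 24 d (18.6% and 17.5%).

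**Figure D1:**
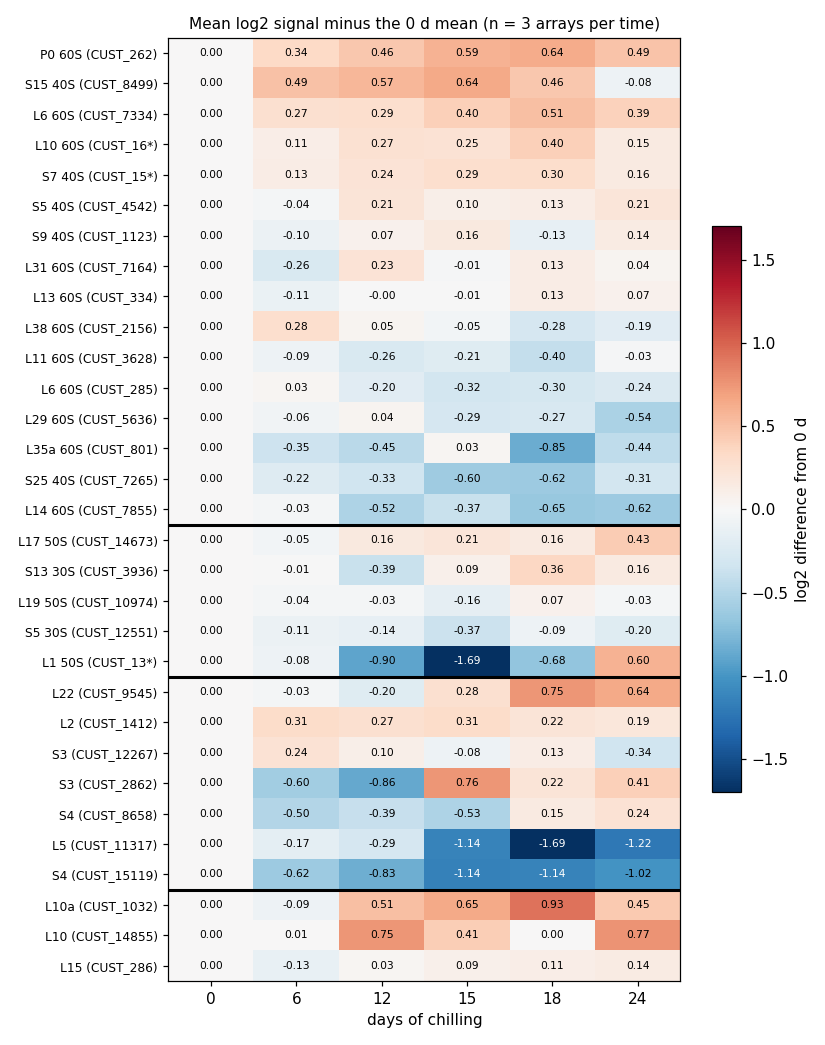
Time means of the 31 members, each row 1 probe and each column a chilling time, as the mean log2 signal of 3 arrays minus that of 0 d (an asterisk stands for the suffix _PI425255467 of a probe name). Black lines part the 40S and 60S names, the 30S and 50S names, the organelle-genome names and the 3 others; L1 and L5 reach -1.69, and P0, L6 (CUST_7334), 60S L10, S7 and L2 lie above 0 at every chilled time.

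The chilled times (the mean of the 5 times from 6 to 24 d) were compared with 0 d by limma across all 14949 probes, with Benjamini-Hochberg adjustment over all of them. This contrast was tested only for the 24 members held in lists built on 6 to 24 d alone. It is independent of differences among those times, though it shares the replicate spread with them. The list over all 6 times is held in part, so some of the 24 may stand in its missing rows. For any such member the test is not independent of the choice. In a plain analysis of variance, L6 (CUST_7334), S25 and L14 were under 0.05 over 6 times (0.00482, 0.0329 and 0.0498) but not over 6 to 24 d (0.132, 0.129 and 0.167). Leaving the 7 aside removes the members known to have been picked partly for a difference from 0 d. Of the 24, 2 rose and 0 fell at an adjusted p under 0.05, which is 8.33% of them, and over all probes 14% passed, 7.95% higher and 6.02% lower. At an unadjusted p under 0.05, 5 were higher and 2 lower, together 29.2% of the 24, and 29.8% of all probes passed. The median difference was 0.02 over the 24 and 0.01 over all 31, with 17 of 31 above 0, and it was 0.03 over all probes, of which 53% were above 0; with slide as a block the median of the 31 was -0.01 and with no normalization between arrays 0.17. The standard errors of the 24 differences ran from 0.0796 to 0.454 (median 0.121).

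**Figure D2:**
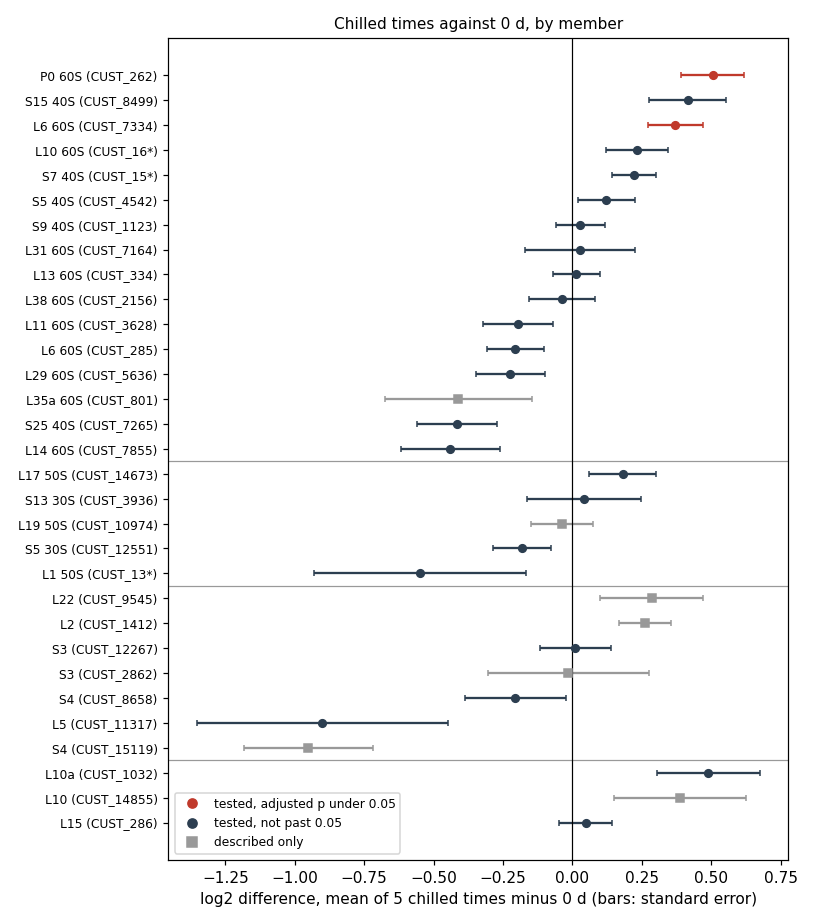
Mean log2 signal of the 5 chilled times minus that of 0 d for each member, with its standard error from the fit across all probes; red circles passed the adjusted threshold, dark circles did not, and grey squares are the 7 members described only. P0 and L6 (CUST_7334) are the red points at 0.51 and 0.37, and differences lie on both sides of 0 in each class of more than 3 members.

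The member with the clearest rise was the acidic protein P0 (CUST_262), which anchors the stalk that brings elongation factors to the 60S subunit. Log2 signals were 16.89, 16.78 and 16.30 before chilling, 16.97, 17.02 and 17.01 at 6 d, 17.12, 16.94 and 17.31 after 12 d, 17.24, 17.22 and 17.29 at 15 d, 17.27, 17.23 and 17.38 after 18 d and 17.04, 17.18 and 17.23 at 24 d. Every one of the 15 chilled arrays was above all 3 arrays of 0 d, as was so for 3.09% of all probes, and the lowest array was replicate 3 of 0 d. The rise was 0.51 (SE 0.11, 1.42-fold, limma adjusted p = 0.0121), with an interval of 0.26 to 0.75 at 95%. The time means climbed from 16.66 ± 0.31 (SD) at 0 d to 17.30 ± 0.07 at 18 d and stood at 17.15 ± 0.10 at 24 d, where all 3 arrays were below all 3 of 18 d, though the nearest pair both round to 17.23. Without replicate 3 of 0 d the difference was 0.33 (adjusted p = 0.0750). On slide 1 alone, which holds 0, 6 and 12 d, it was 0.36 (adjusted p = 0.344), and with slide as a block 0.30 (adjusted p = 0.447).

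The second member that rose was L6 (CUST_7334), a protein of the 60S surface. The arrays gave log2 signals of 17.07, 16.87 and 16.73 before chilling, 17.19, 17.22 and 17.08 at 6 d, 17.17, 17.07 and 17.29 after 12 d, 17.35, 17.18 and 17.36 at 15 d, 17.34, 17.39 and 17.46 after 18 d and 17.09, 17.32 and 17.42 at 24 d. At 0 d 2 of the 3 arrays were below all chilled arrays, and replicate 1 of 0 d, at 17.07, lay above 1 of them, replicate 2 of 12 d. All 3 arrays of 6 d and all 3 of 18 d were above all of 0 d. The rise was 0.37 (SE 0.10, 1.29-fold, limma adjusted p = 0.0247), with an interval of 0.16 to 0.58. Its mean was highest at 18 d (17.40 ± 0.06) and lowest at 0 d (16.89 ± 0.17). The call was lost without replicate 2 or replicate 3 of 0 d (adjusted p = 0.0832 and 0.123) and on slide 1 alone (0.25, adjusted p = 0.394). It was also lost with slide as a fixed block and under other ways of normalizing or correcting the signal, which are given at the end.

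A second L6 probe (CUST_285) did not follow the first. Its arrays read 16.06, 15.89 and 15.92 before chilling, 16.04, 15.89 and 16.03 at 6 d, 16.00, 15.57 and 15.70 after 12 d, 15.56, 15.54 and 15.82 at 15 d, 15.63, 15.61 and 15.73 after 18 d and 15.62, 15.85 and 15.68 at 24 d. All 3 arrays of 18 d were below all of 0 d, and its mean moved from 15.96 ± 0.09 at 0 d to 15.64 ± 0.16 at 15 d. The chilled difference was -0.21 (SE 0.10, interval -0.43 to 0.02, adjusted p = 0.203). Set against its own 0 d level, the first probe had gained on the second by 0.24 ± 0.15 (SD) at 6 d, 0.48 ± 0.22 after 12 d, 0.72 ± 0.13 at 15 d, 0.81 ± 0.04 after 18 d and 0.63 ± 0.16 at 24 d. Both descriptions name 60S L6 of castor bean, and the difference between the probes was not tested.

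The 40S protein S7 (CUST_15_PI425255467, from a *Paeonia suffruticosa* clone) had the smallest replicate spread of the members, a pooled SD of 0.0712. On the arrays it stood at 16.77, 16.54 and 16.76 before chilling, 16.87, 16.80 and 16.79 at 6 d, 16.92, 16.98 and 16.89 after 12 d, 16.99, 17.00 and 16.96 at 15 d, 16.95, 17.00 and 17.02 after 18 d and 16.81, 16.79 and 16.95 at 24 d. Every chilled array was above every array of 0 d. The difference, 0.22 (SE 0.08, interval 0.05 to 0.39), had an adjusted p of 0.0767 and did not pass.

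The 40S protein S15 (CUST_8499), which sits in the head of the small subunit near the decoding site, was higher in the middle of the treatment and back at its starting level at the end. The 18 arrays read 11.58, 12.04 and 11.61 before chilling, 12.37, 12.19 and 12.14 at 6 d, 12.44, 12.11 and 12.38 after 12 d, 12.38, 12.18 and 12.59 at 15 d, 12.55, 12.06 and 11.98 after 18 d and 11.58, 11.62 and 11.78 at 24 d. All 3 arrays of 6 d were above all of 0 d, and all 3 of 24 d were below all of 18 d. The mean over the chilled times was 0.42 above 0 d (SE 0.14, interval 0.12 to 0.71, adjusted p = 0.0608), with 13 of 15 chilled arrays above the 0 d mean. The time means were 11.74 ± 0.26 at 0 d, 12.38 ± 0.21 at 15 d and 11.66 ± 0.11 at 24 d.

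The 60S protein L10 (CUST_16_PI425255467, also from a *Paeonia suffruticosa* clone) joins the subunit late in its assembly. Log2 signals were 17.71, 17.56 and 17.42 before chilling, 17.68, 17.72 and 17.61 at 6 d, 17.72, 17.84 and 17.94 after 12 d, 17.79, 17.71 and 17.94 at 15 d, 18.02, 17.94 and 17.93 after 18 d and 17.40, 17.75 and 17.98 at 24 d. All 3 arrays of 18 d were above all 3 of 0 d, while replicate 1 of 24 d was the lowest array of all. The chilled difference was 0.23 (SE 0.11, interval -0.005 to 0.47, adjusted p = 0.177).

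Other cytosolic members had lower values after chilling, and none of them passed. S25 (CUST_7265), a 40S protein used for some cap-independent initiation in yeast and human cells, had a log2 signal of 15.74, 15.66 and 15.26 before chilling, 15.39, 15.27 and 15.34 at 6 d, 15.22, 15.23 and 15.20 after 12 d, 15.09, 14.71 and 15.05 at 15 d, 15.03, 14.92 and 14.86 after 18 d and 14.80, 15.37 and 15.57 at 24 d. At 15 and 18 d all 6 arrays were below all 3 of 0 d, and at 24 d the replicates parted, with replicate 1 low and replicate 3 near the 0 d level. The chilled difference was -0.42 (SE 0.14, interval -0.72 to -0.11, adjusted p = 0.0667), and 1 of the 15 chilled arrays was above the 0 d mean. Without replicate 3 of 0 d it was -0.56 and passed (adjusted p = 0.0474).

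L14 (CUST_7855), a 60S protein, stayed level through 6 d and was lower from 12 d on. The arrays gave log2 signals of 14.86, 14.69 and 14.85 before chilling, 14.74, 14.77 and 14.79 at 6 d, 14.30, 13.98 and 14.55 after 12 d, 14.29, 14.36 and 14.63 at 15 d, 14.63, 13.51 and 14.32 after 18 d and 14.11, 14.07 and 14.34 at 24 d. The arrays of 12, 15, 18 and 24 d all lay below the lowest of 0 d, and 0 of 15 chilled arrays exceeded the 0 d mean; replicate 2 of 18 d was the lowest. The chilled difference was -0.44 (SE 0.18, interval -0.82 to -0.06, adjusted p = 0.115). Its means were 14.80 ± 0.10 at 0 d, 14.77 ± 0.03 at 6 d and 14.15 ± 0.58 at 18 d.

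**Figure D3:**
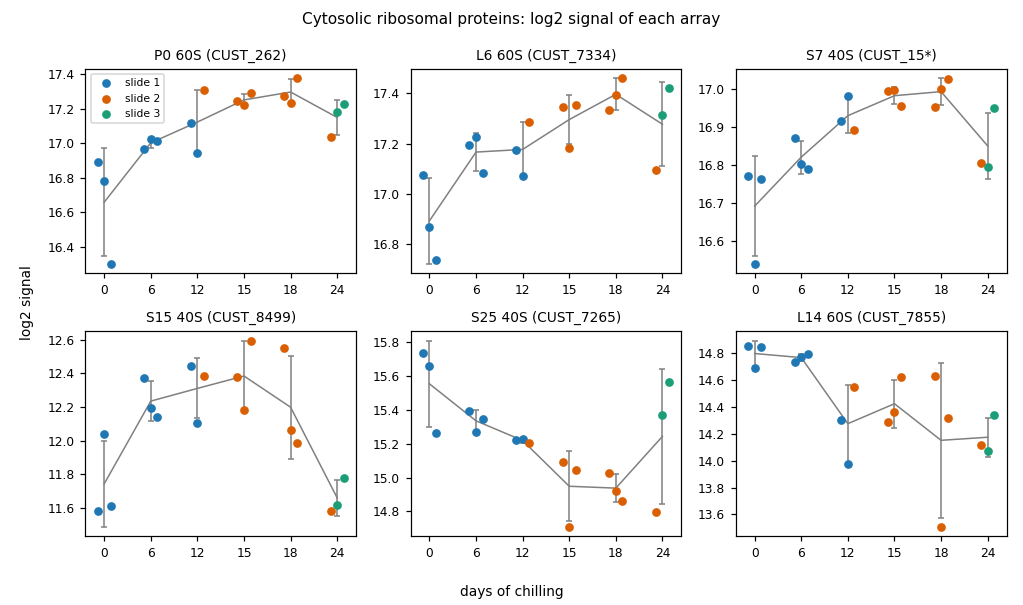
Log2 signal of 6 cytosolic members on each of the 18 arrays against days of chilling, coloured by slide, with the mean and SD of 3 arrays at each time in grey. P0, L6 (CUST_7334) and S7 climb to 18 d, S15 returns at 24 d to its level at 0 d, and S25 and L14 are lower at 15 and 18 d; all arrays of 0 and 6 d are on slide 1.

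L35a (CUST_801), a 60S protein and 1 of the 7 described only, had the largest range of time means among the cytosolic members. Its arrays read 7.20, 7.29 and 8.46 before chilling, 8.05, 6.93 and 6.91 at 6 d, 7.16, 7.05 and 7.37 after 12 d, 7.70, 7.82 and 7.52 at 15 d, 6.60, 6.81 and 6.99 after 18 d and 6.82, 7.22 and 7.59 at 24 d. At 18 d all 3 arrays were below every array of 0 d and of 15 d, and the means were 7.65 ± 0.70 at 0 d, 7.68 ± 0.15 at 15 d and 6.80 ± 0.19 at 18 d. The 0 d mean rests on replicate 3, more than 1 unit above the other 2.

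L11, L29 and L38 had their lowest means at 18 or 24 d. L11 (CUST_3628), which belongs to the particle around 5S rRNA, had means of 18.07 ± 0.31 before chilling, 17.98 ± 0.08 at 6 d, 17.81 ± 0.21 after 12 d, 17.86 ± 0.14 at 15 d, 17.66 ± 0.13 after 18 d and 18.04 ± 0.12 at 24 d. L29 (CUST_5636) had means of 15.67 ± 0.13 before chilling, 15.61 ± 0.03 at 6 d, 15.71 ± 0.22 after 12 d, 15.38 ± 0.15 at 15 d, 15.40 ± 0.25 after 18 d and 15.13 ± 0.18 at 24 d. L38 (CUST_2156) had means of 10.09 ± 0.18 before chilling, 10.37 ± 0.20 at 6 d, 10.14 ± 0.29 after 12 d, 10.04 ± 0.03 at 15 d, 9.80 ± 0.06 after 18 d and 9.90 ± 0.07 at 24 d. L29 was thus lowest at 24 d, L38 highest at 6 d and lowest at 18 d, and L11 highest at 0 d; their chilled differences of -0.22, -0.04 and -0.20 did not pass (adjusted p = 0.242, 0.866 and 0.317).

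In L13, S9 and L31 the chilled mean differed from 0 d by 0.03 or less. L13 (CUST_334) had means of 17.43 ± 0.09 before chilling, 17.32 ± 0.10 at 6 d, 17.43 ± 0.07 after 12 d, 17.42 ± 0.08 at 15 d, 17.56 ± 0.06 after 18 d and 17.50 ± 0.11 at 24 d. S9 (CUST_1123), whose counterpart in other organisms helps decoding accuracy, had means of 10.53 ± 0.02 before chilling, 10.43 ± 0.11 at 6 d, 10.60 ± 0.18 after 12 d, 10.69 ± 0.08 at 15 d, 10.40 ± 0.04 after 18 d and 10.67 ± 0.05 at 24 d. L31 (CUST_7164), at the mouth of the exit tunnel, had means of 13.97 ± 0.16 before chilling, 13.71 ± 0.20 at 6 d, 14.20 ± 0.21 after 12 d, 13.95 ± 0.44 at 15 d, 14.10 ± 0.52 after 18 d and 14.01 ± 0.20 at 24 d. S9 had all 3 arrays of 18 d below all of 15 d and all 3 of 24 d above all of 18 d, and the range of its means was 0.30. The chilled differences were 0.01 (interval -0.17 to 0.20) in L13, 0.03 (-0.16 to 0.22) in S9 and 0.03 (-0.40 to 0.45) in L31.

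S5 was named for both kinds of ribosome. The 40S protein S5 (CUST_4542), which lines the exit of the mRNA channel, had a log2 signal of 16.85, 16.92 and 16.68 before chilling, 16.79, 16.70 and 16.84 at 6 d, 16.93, 17.24 and 16.92 after 12 d, 16.98, 16.70 and 17.06 at 15 d, 17.06, 16.82 and 16.95 after 18 d and 17.02, 16.98 and 17.07 at 24 d. The 30S protein S5 (CUST_12551), a different protein that shares only the number and lies near the mRNA entry, had 14.97, 14.65 and 14.69 before chilling, 14.68, 14.78 and 14.54 at 6 d, 14.59, 14.84 and 14.46 after 12 d, 14.34, 14.35 and 14.51 at 15 d, 14.82, 14.64 and 14.58 after 18 d and 14.55, 14.50 and 14.65 at 24 d. The 40S probe had nearly equal highest means at 12 d (17.03 ± 0.18) and 24 d (17.03 ± 0.05), the first raised by replicate 2. The 30S probe was lowest at 15 d, where all 3 of its arrays were below all of 0 d and of 18 d. The chilled differences were 0.12 (SE 0.10, adjusted p = 0.460) and -0.18 (SE 0.11, adjusted p = 0.268).

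The 50S protein L1 (CUST_13_PI425255467, from a *Paeonia suffruticosa* clone) had the widest course of all members. L1 forms the stalk that lets spent tRNA leave the bacterial-type ribosome. On the arrays it stood at 11.27, 12.53 and 11.05 before chilling, 11.32, 11.03 and 12.26 at 6 d, 11.30, 11.13 and 9.72 after 12 d, 9.99, 10.12 and 9.66 at 15 d, 10.10, 11.31 and 11.40 after 18 d and 11.84, 12.41 and 12.40 at 24 d. It was lowest at 15 d, where all 3 arrays were below all 3 of 0 d and of 6 d, and highest at 24 d, where all 3 were above all 3 of 18 d. The means went from 11.62 ± 0.80 at 0 d to 9.93 ± 0.24 at 15 d and 12.21 ± 0.33 at 24 d, 4.88-fold between the last pair. At 12 d the array on slide 2 read 9.72 and those on slide 1 read 11.30 and 11.13. Slide and time therefore cannot be told apart in the fall to 15 d. The later climb was also seen inside slide 2. Its L1 signals there were 9.66 to 10.12 at 15 d, 10.10 to 11.40 at 18 d and 11.84 on a single 24 d array. The climb within that slide was not tested. The difference between 15 and 24 d belongs to the times that chose the members and is a description; the chilled difference was -0.55 (SE 0.38, interval -1.37 to 0.27, adjusted p = 0.360).

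The other 30S and 50S members had ranges of means from 0.23 in L19 to 0.74 in S13. S13 (CUST_3936), a plastid 30S protein that contacts the large subunit, had a log2 signal of 8.45, 8.77 and 8.98 before chilling, 8.89, 8.65 and 8.63 at 6 d, 8.72, 7.55 and 8.77 after 12 d, 8.61, 9.01 and 8.86 at 15 d, 9.01, 9.09 and 9.17 after 18 d and 8.74, 8.78 and 9.15 at 24 d. L17 (CUST_14673), a plastid 50S protein at the exit tunnel, had 14.54, 14.66 and 14.79 before chilling, 14.55, 14.59 and 14.71 at 6 d, 14.83, 14.92 and 14.75 after 12 d, 15.12, 14.74 and 14.76 at 15 d, 14.70, 14.84 and 14.93 after 18 d and 14.82, 15.06 and 15.40 at 24 d. S13 rested on replicate 2 of 12 d for its lowest mean and had all 3 arrays of 18 d above all of 0 d, and L17 had its highest array at 24 d. Their chilled differences were 0.04 (SE 0.21, adjusted p = 0.916) and 0.18 (SE 0.12, adjusted p = 0.335). L19 (CUST_10974), at the interface of the subunits and described only, had means of 14.12 ± 0.16 before chilling, 14.09 ± 0.18 at 6 d, 14.09 ± 0.20 after 12 d, 13.97 ± 0.03 at 15 d, 14.20 ± 0.01 after 18 d and 14.09 ± 0.20 at 24 d. From 15 to 18 d, both on slide 2, all 3 later arrays lay above the earlier 3 in S13, 30S S5 and L19, 3 of the 5 members with 30S or 50S names (12.3% of all probes). In all 5 the mean of 18 and 24 d was above that of 6, 12 and 15 d, by 0.06 to 0.85, as it was in 52.9% of all probes; both counts use the times that chose the members and are descriptions.

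Among the names that organelle genomes also carry, the wide courses belonged to L5, S3 and S4. L5 (CUST_11317), whose protein binds 5S rRNA, had a log2 signal of 10.36, 12.07 and 11.39 before chilling, 10.98, 10.65 and 11.70 at 6 d, 11.20, 10.63 and 11.13 after 12 d, 11.50, 9.79 and 9.11 at 15 d, 9.35, 9.10 and 10.32 after 18 d and 10.08, 10.75 and 9.35 at 24 d. At 18 d all 3 arrays were below all 3 of 0 d, and the means of 0 and 18 d lay 1.69 apart, but replicates at one time differed by up to 2.39, at 15 d, and the pooled SD was 0.768. The chilled difference was -0.90 (SE 0.45, interval -1.87 to 0.07, adjusted p = 0.202).

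A pair of probes named S4, with matches to *Marchantia* and to *Buxus*, was on the array; S4 starts the assembly of the bacterial-type small subunit. The *Marchantia* match (CUST_15119) had a log2 signal of 11.26, 11.71 and 11.71 before chilling, 11.11, 10.55 and 11.16 at 6 d, 11.09, 10.64 and 10.45 after 12 d, 11.13, 10.12 and 10.01 at 15 d, 10.29, 10.35 and 10.63 after 18 d and 10.62, 10.89 and 10.11 at 24 d. The *Buxus* match (CUST_8658) had 10.94, 10.82 and 11.14 before chilling, 10.72, 10.50 and 10.17 at 6 d, 10.67, 10.43 and 10.62 after 12 d, 10.68, 9.98 and 10.64 at 15 d, 11.62, 10.93 and 10.80 after 18 d and 11.33, 11.02 and 11.26 at 24 d. The first was lower than at 0 d on every one of the 15 chilled arrays, by 0.95 on average (2.78% of all probes had every chilled array lower), and is described only. The second was below 0 d at 6, 12 and 15 d and back at or above it at 18 and 24 d, with all 3 arrays of 18 d above all of 15 d, and its chilled difference was -0.21 (SE 0.18, adjusted p = 0.482). From 15 d to 18 d the mean of the first moved from 10.42 ± 0.62 to 10.42 ± 0.18 and that of the second from 10.44 ± 0.39 to 11.12 ± 0.44.

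S3, at the mRNA entry of the small subunit, also had a pair of probes. The tobacco match (CUST_12267) had a log2 signal of 14.60, 14.43 and 14.15 before chilling, 14.60, 14.81 and 14.49 at 6 d, 14.65, 14.22 and 14.62 after 12 d, 14.26, 14.24 and 14.44 at 15 d, 14.67, 14.48 and 14.41 after 18 d and 14.08, 14.26 and 13.83 at 24 d. The maize match (CUST_2862) had 8.58, 8.44 and 8.65 before chilling, 8.09, 8.04 and 7.74 at 6 d, 7.97, 7.32 and 7.79 after 12 d, 10.42, 8.68 and 8.83 at 15 d, 8.76, 9.28 and 8.30 after 18 d and 9.15, 9.08 and 8.67 at 24 d. The maize match was below all arrays of 0 d on all 3 arrays of 6 d and on all 3 of 12 d and above them on all 3 of 15 d, and its highest value, replicate 1 of 15 d, stood 1.59 above the next array of that time. The tobacco match moved within 0.58 between means, highest at 6 d and lowest at 24 d, where all 3 arrays were below all of 18 d. Its chilled difference was 0.01 (SE 0.13, interval -0.26 to 0.29, adjusted p = 0.968).

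**Figure D4:**
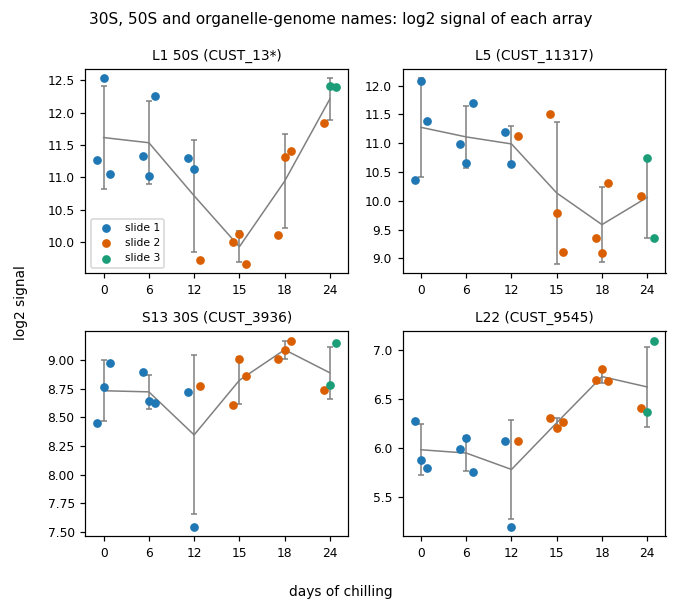
Log2 signal of L1, L5, S13 and L22 on each of the 18 arrays against days of chilling, coloured by slide, with the mean and SD of 3 arrays at each time in grey. L1 has its trough at 15 d, L5 is spread widely within a time and lies lower from 15 d on, and L22 is highest at 18 and 24 d.

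The other 2 members of these names were L22 and L2, both described only. L22 (CUST_9545), at the exit tunnel, had a log2 signal of 6.28, 5.88 and 5.79 before chilling, 5.99, 6.10 and 5.75 at 6 d, 6.07, 5.20 and 6.08 after 12 d, 6.30, 6.21 and 6.26 at 15 d, 6.69, 6.81 and 6.69 after 18 d and 6.41, 6.36 and 7.10 at 24 d. It passed background on 2 of the 3 arrays both at 0 d and at 12 d and on all others. At 18 d all 3 arrays were above all of 0 d and of 15 d. L2 (CUST_1412), a protein of the peptidyl transferase centre, had 14.94, 14.89 and 14.94 before chilling, 15.35, 15.22 and 15.13 at 6 d, 15.18, 15.15 and 15.25 after 12 d, 15.14, 15.24 and 15.34 at 15 d, 15.06, 15.16 and 15.22 after 18 d and 14.90, 15.18 and 15.27 at 24 d. All 3 arrays of 6 d and all 3 of 18 d were above all of 0 d in L2, and replicate 1 of 24 d was the 1 chilled array that lay within the values of 0 d.

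Of the members with no subunit named, L10a had the widest range of means. L10a (CUST_1032) is the cytosolic counterpart of bacterial L1. The 18 arrays read 14.58, 14.44 and 13.98 before chilling, 14.04, 14.21 and 14.50 at 6 d, 14.63, 15.39 and 14.53 after 12 d, 15.26, 14.79 and 14.90 at 15 d, 15.40, 15.39 and 15.00 after 18 d and 14.69, 14.66 and 15.01 at 24 d. The mean was 14.34 ± 0.32 at 0 d and 15.27 ± 0.23 at 18 d, where all 3 arrays were above all of 0 d, and was 14.78 ± 0.19 at 24 d. Over the chilled times it was 0.49 above 0 d (SE 0.19, interval 0.09 to 0.89, adjusted p = 0.0937). The L1 probe, of the bacterial-type ribosome, was lowest at 15 d and highest at 24 d, and L10a was lowest at 6 d and highest at 18 d.

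The L10 family probe (CUST_14855), described only, had a log2 signal of 8.87, 8.86 and 8.52 before chilling, 8.99, 8.50 and 8.78 at 6 d, 8.86, 10.34 and 9.30 after 12 d, 9.29, 9.27 and 8.93 at 15 d, 9.06, 8.26 and 8.94 after 18 d and 9.47, 9.67 and 9.41 at 24 d. It was highest at 24 d, where all 3 arrays were above all of 18 d, and a single array, replicate 2 of 12 d, was the highest of all. L15 (CUST_286), a core protein of the large subunit, had 18.65, 18.67 and 18.48 before chilling, 18.39, 18.50 and 18.52 at 6 d, 18.48, 18.67 and 18.74 after 12 d, 18.70, 18.70 and 18.67 at 15 d, 18.53, 18.67 and 18.92 after 18 d and 18.68, 18.70 and 18.82 at 24 d. L15 moved within 0.26 between means, and its chilled difference was 0.05 (SE 0.10, interval -0.16 to 0.25, adjusted p = 0.780). The L10 family probe and the 60S L10 probe did not share a peak, since L10 was highest at 18 d, at 17.96 ± 0.05.

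**Figure D5:**
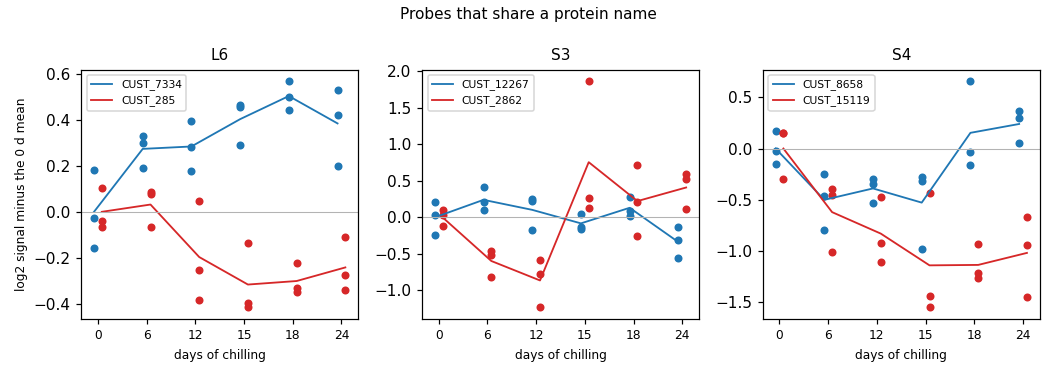
Log2 signal minus the mean of 0 d for the pairs of probes that share the name L6, S3 or S4, against days of chilling; points are arrays and lines join the means of 3 arrays. The L6 probes part from 6 d on, and the S3 probes part at 6 and 12 d and cross at 15 d. The S4 probes are apart by 12 d, with the widest mean gap at 18 d.

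Comparisons that the rule used, or that share times with it, are given as descriptions. At 18 d against 0 d, 8 members had all 3 arrays above all 3 of 0 d and 8 had all below, each 25.8% of the 31, where 20.8% of all probes had all above and 17.2% all below. By limma, 6 of 31 (19.4%) passed at 18 d against 0 d, with L6 (CUST_7334), P0, L22 and L10a higher and S25 and S4 (CUST_15119) lower, where 15.7% of all probes passed. At 6 d against 0 d, the comparison that lies within slide 1, 5 members had all arrays above (L6 CUST_7334, P0, S7, S15 and L2) and 3 all below (S3 CUST_2862 and both S4), where 11.9% and 10.3% of all probes did. At this step the differences were 0.34 for P0, 0.27 for L6, 0.13 for S7, 0.49 for S15 and 0.31 for L2. By limma none of the members passed at 6 d against 0 d. In these 5 the limma adjusted p ran from 0.219 (S15) to 0.575 (S7).

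From 15 to 18 d, where the labels change from endo-dormancy to its release and all arrays are on slide 2, 6 members had all later arrays higher (L19, S13, 30S S5, L13, L22 and S4 CUST_8658) and 3 had all lower (L35a, L38 and S9), where 12.3% and 8.66% of all probes did. From 18 to 24 d, 4 had all later arrays higher (L1, L11, S9 and the L10 family probe) and 4 all lower (P0, S15, S7 and S3 CUST_12267), where 8.02% and 11.4% of all probes did. By limma none of the members passed at 24 d against 18 d, and in those named the adjusted p ran from 0.241 (S15) to 0.781 (P0). Of the 4 that were lower after 18 d, P0, S15 and S7 were also among those above 0 d at 6 d, and the nearest arrays of 18 and 24 d in P0 and in S7 differ by less than rounding shows. The mean of 18 and 24 d set against that of 6, 12 and 15 d passed by limma in 2 of 31, L22 and S4 (CUST_8658), both higher, where 1.59% of all probes passed; with slide as a fixed or random block, and on the arrays of 6 to 24 d alone, 0 of 31 passed.

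Over the 6 times together, the moderated F test of limma passed 0 of 31 members after adjustment, where 5.62% of all probes passed. A plain analysis of variance over the 6 times, the kind of test the lists were built on, was under 0.05 without adjustment in 18 of 31 members (26.8% of all probes), and over 6 to 24 d in 13 of 31 (16.2%), and 19 passed at least 1 of them. Just inside and outside 0.05 over the 6 times stood L14 (0.0498) and L17 (0.0552), and over 6 to 24 d L13 (0.0498) and L11 (0.0569). Shares above those of all probes are tied to how the members were picked. The choice was not recovered in full by these tests, since members such as L19 (0.624 over 6 times) and L31 (0.517 over 6 to 24 d) did not pass.

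Deviations within a time were weakly shared among members. The mean correlation between pairs of the 16, over the 18 deviations from the time means, was 0.18, where it was 0.09 over all 31 members and 0.0036 over all probes. It was higher in some smaller groups, at 0.28 over the 3 members with no subunit named and 0.39 over 7 photosynthesis and 0.47 over 3 ribosome assembly probes, so it was not particular to the cytosolic members. All of these share the arrays and their normalization, and they are descriptions. In replicate 3 of 15 d 14 of the 16 were above their time mean, and in replicate 2 of 15 d 2 of 16 were; at 24 d 13 of 16 were above it in replicate 3 and 2 of 16 in replicate 1. The deviations were small, with a mean over the 16 of -0.13 in replicate 1 of 24 d and 0.13 in replicate 3, and those arrays are on slides 2 and 3.

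Other genes of the protein-making machinery were taken from the same held annotation. A further 26 probes were placed in the ribosome category or named as its constituents, and were not in the held rows of the list over all times. Of these 26, 2 rose and 1 fell in the chilled times, 11.5% beside 14% of all probes, with a median of 0.05. CUST_13313, described as a structural constituent of the ribosome, rose by 0.74 (SE 0.20, limma adjusted p = 0.0263), with signals of 11.80, 11.63 and 12.29 before chilling, 12.46, 12.46 and 12.55 at 6 d, 13.04, 12.56 and 12.07 after 12 d, 12.55, 12.71 and 12.05 at 15 d, 13.07, 12.87 and 12.74 after 18 d and 12.45, 12.98 and 13.01 at 24 d. CUST_3841, a hypothetical protein in the ribosome category, fell by 1.50 (SE 0.30, adjusted p = 0.00693), with signals of 12.80, 12.98 and 13.80 before chilling, 12.04, 12.28 and 11.97 at 6 d, 11.25, 12.48 and 11.84 after 12 d, 11.08, 12.18 and 11.69 at 15 d, 12.88, 11.93 and 12.29 after 18 d and 10.59, 9.94 and 10.98 at 24 d. These are the widest called changes of that list, and 24 d holds the lowest 3 arrays of CUST_3841. CUST_2145, another hypothetical protein of the category, rose by 0.43 (SE 0.14, adjusted p = 0.0490).

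Of 8 translation factor probes, 1 rose (12.5%, beside 14% of all probes) and 0 fell. It was an EF-1-alpha probe (CUST_18), the factor that brings charged tRNA to the ribosome, with a log2 signal of 12.82, 13.25 and 12.14 before chilling, 13.51, 13.81 and 13.77 at 6 d, 13.73, 13.89 and 14.09 after 12 d, 14.09, 14.14 and 14.03 at 15 d, 13.99, 13.79 and 13.70 after 18 d and 13.97, 14.12 and 13.90 at 24 d. Every chilled array was above every array of 0 d, by 1.16 on average (SE 0.17, adjusted p = 0.00198), while 7 of the 8 had lower chilled means (47% of all probes did) and the median was -0.24. The other 3 EF-1-alpha probes had differences of -0.19 (CUST_12105, tested, adjusted p = 0.582), -0.18 (CUST_2179) and 0.03 (CUST_1941), the last pair described only. Of 7 tRNA-charging probes, 2 passed (28.6%, beside 14% of all probes). The glutaminyl-tRNA synthetase OVA9 (CUST_13449) rose by 0.36 (SE 0.11, limma adjusted p = 0.0436). The valyl-tRNA ligase TWN2 (CUST_2791) fell by 0.87 (SE 0.24, adjusted p = 0.0318), while a second TWN2 probe (CUST_2790) had a difference of 0.10 (adjusted p = 0.75). The largest difference among the 7 was a rise of 5.61, in a probe that did not pass. Of 2 ribosome assembly probes, 0 passed.

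All 7 photosynthesis probes (photosystem, chlorophyll a/b and ribulose bisphosphate names) had lower chilled means than at 0 d, by 0.28 to 1.56 with a median of -0.64. Of these, 6 came from the list over all times, so their direction is no independent evidence, and their part in the values of the plastid ribosomal members was not tested.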

How the data were processed

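Buds of 6 chilling times were hybridized, Cy3-labelled, to single-colour custom Agilent arrays, 18 in all. Per the submitters' notes and file headers, Feature Extraction 10.5.1.1 gave the scanner intensity of each spot, deposited per array. The authors quantile-normalized these in GeneSpring, and the deposited value table of log2 signals (14949 probes, column medians all 10.8, correlation with the scanner log2 signal 0.997 or more on each array) was used as it stands. Members were probes with "ribosomal protein" in a held description; 1999 rows of each of the study's 3 lists were held, which does not cover the lists in full. Members, classes and gene lists were chosen with earlier results of these data known. Probe names without a suffix end in _PI425249770 in the files. No probe, promoter or protein sequence is shown, since none was used here.

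limma 3.58.1 in R 4.3.3 (lmFit, eBayes) fitted 1 mean per time over all probes, p-values being adjusted by Benjamini-Hochberg across the 14949 probes and called under 0.05. The contrast of the 5 chilled times with 0 d was tested for members held only in lists built on 6 to 24 d; every other contrast is a description. SD is over 3 arrays, and intervals are at 95%. All members are named; values on every array are given for those that passed, the 3 widest per class and those sharing a protein name, and S7, S25, L2 and L22 were added after their values were seen. The number of arrays limits precision. No pair of arrays of a time held identical values (highest correlation 0.988). Replicate numbers did not pair the samples: same-numbered arrays' deviations correlated between -0.23 and 0.29. The scripts were tested on simulated data with independent noise and no slide effect, so that run says nothing about slides. Alternatives were the flagged spots left out, the 75th percentile, no normalization, normexp background correction (offset 50, on the median signal), a filter on dim probes, slide or replicate number as a block, another variance prior and each array left out.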

Additional observations from a re-analysis of the deposited data

How the results depend on the processing

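The 2 members that rose, P0 and L6 (CUST_7334), stayed positive under every setting run but did not always pass. The count of members that rose was 1 with no normalization between arrays (S15) and 1 with normexp (P0), 3 with a trended and robust prior (S7 added), 0 with slide as a fixed block and 0 on slide 1 alone, and 0 to 3 with 1 array left out, the 0 without replicate 3 of 0 d. The count that fell was 2 with the 75th percentile (S25 and L11), 1 with a trended and robust prior (S25) and 0 to 1 with 1 array left out. P0 had adjusted p = 0.0522 with no normalization, and L6 (CUST_7334) 0.0966 there, 0.0884 with normexp, 0.0721 with the 75th percentile and 0.497 with the fixed slide block. Over all probes 2089 passed as reported. Counted anew in each setting, 1322 passed with no normalization, 51 with the fixed slide block and 0 on slide 1 alone (2577 at an unadjusted p under 0.05). With 1 array left out 937 to 2599 passed, and without replicates 1, 2 and 3 of 0 d the counts were 937, 1217 and 1192. No normalization moved the share of calls that were higher from 56.9% to 76.5% and the median of all probes from 0.03 to 0.17; the share was 49% with the fixed slide block.

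With replicate number as a block, which the pairing check did not bear out (6 of 18 arrays correlated best with their own number), 1771 probes passed. P0 and L6 (CUST_7334) passed (limma adjusted p = 0.0237 and 0.0422), and 1 member passed at 18 and 24 d against 6, 12 and 15 d. That last count, 2 as reported, was 1 with no normalization, 1 with the trended and robust prior, 0 with slide as a fixed or random block, 0 to 2 with 1 array left out and 0 on the arrays of 6 to 24 d alone, a setting chosen after seeing the data. The F test over 6 times passed 1 member with the 75th percentile, 3 with normexp, 3 with the trended and robust prior and 0 to 3 with 1 array left out; the methods' analysis of variance passed 18 over 6 times and 13 over 5 times unadjusted, and 1 after Benjamini-Hochberg adjustment. It was not run on fewer times. At 18 d against 0 d, the count of members, 6 as reported, was 0 with the fixed slide block, 1 on the arrays of 0 and 18 d alone and 1 to 7 with 1 array left out. The count of probes of the other lists that passed, 6 as reported, was 3 with no normalization, 0 with the fixed slide block, 0 on slide 1 alone and 3 to 6 with 1 array left out. Slide and time overlap in large part, and the cause of these losses was not tested. The median of the 31 members, 0.01 as reported, was 0.17 with no normalization, -0.01 with the fixed slide block, -0.05 on slide 1 alone and -0.00448 to 0.0321 with 1 array left out, so its sign is not settled. Of single members, L10a, L14, L5, L6 (CUST_7334), P0, S15, S25 and S7 kept the sign of their chilled difference under every setting run.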
